A study of Mus musculus with 21 samples.

Results

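The comparison described here set Rtel1 F/F mouse embryonic fibroblasts (MEFs) that carried an RTEL1 C1252A/C1255A retrovirus against the parental Rtel1 F/F MEFs, both after deletion of the endogenous Rtel1 alleles with adenoviral Cre (+Cre). Its members were chosen by their group labels alone, and they are 6 of the 21 RNA-seq libraries of the series, 3 biological replicates of RTEL1CA +Cre and 3 of Rtel1 F/F +Cre. Cells were collected 96 h after infection. The same lines infected with a GFP-only adenovirus (RTEL1CA +GFP and Rtel1 F/F +GFP, 3 libraries each) gave the gap between the lines without deletion. These were also collected at 96 h, so "before Cre" below stands for the +GFP cultures and not for an earlier time. The remaining libraries, Rtel1 F/F +GFP cells treated with TMPyP4 and Terf1 F/F cells with GFP or Cre, entered the fit only to share its estimate of the spread.

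All 6 libraries had floxed Rtel1 alleles exposed to Cre, and they differed in the presence of the mutant. The mutant was expressed from a pBabe retroviral vector in a separately derived line. No line with wild-type RTEL1 put back was analysed here, so the effects of the mutation, of the amount of RTEL1 made from the vector and of deriving the line cannot be told apart. The labels call the replicates biological but do not say whether they came from separate embryos. The p-values measure only the spread between libraries, estimated over all 21 libraries of the series.

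RTEL1 is an iron-sulphur DNA helicase that unwinds secondary structures in DNA, among them telomeric t-loops and G-quadruplexes. It binds PCNA, and through that contact it gathers at sites of replication stress. It is not a constant part of the replication machinery. The C1252A/C1255A change lies in its C4C4 motif near the C-terminus, through which RTEL1 is brought to telomeres by TRF2. The helicase and PCNA contacts are outside that motif, so the mutant has been used to separate the telomeric role from the role at forks.

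Total counts of the 6 libraries lay between 37651982 and 51938593, within the range of 32069888 to 51938593 over all 21. Fibroblast genes were expressed at high levels in every library, with Vim at 1460 to 2010 CPM (counts scaled to library size) in the 6 libraries, but Thy1 was at or under 0.49 CPM. Of 7 macrophage markers, Adgre1 and Tyrobp had no counts in any of the 6 libraries, while Cd68 was at 1.36 to 2.33 CPM, and the summed level was 3.00 to 3.31 CPM in RTEL1CA +Cre and 2.98 to 3.78 CPM in Rtel1 F/F +Cre. Of 7 skeletal muscle markers, Myod1 and Myog had no counts and Des was at 0.27 to 0.601 CPM. Their sums were 0.295 to 0.375 CPM in RTEL1CA +Cre and 0.396 to 0.601 CPM in Rtel1 F/F +Cre. In the same order, 6 neural and glial markers summed to 31.8 to 35.5 and 34.4 to 41.9 CPM. Of these, Sox2 was at 17.7 to 18.7 and 23 to 23.5 CPM. The sums of 5 chondrocyte markers were 19.8 to 30.8 and 21.7 to 33.6 CPM. Replicates differed among themselves, and not in matrix genes alone. Pold1, a DNA replication gene, was at 53.1, 17.1 and 26.9 CPM in RTEL1CA +Cre and at 54.4, 18.5 and 47 CPM in Rtel1 F/F +Cre. Col1a1, a chain of type I collagen, was at 1880, 585 and 787 CPM in RTEL1CA +Cre and at 1900, 644 and 1350 CPM in Rtel1 F/F +Cre, so its spread within each group exceeded the gap between them. The Rtel1 F/F +GFP libraries stood apart from the other 3 groups of both lines, with summed fibroblast marker levels of 19500 to 21500 CPM against 7950 to 13000 CPM in the other 9 libraries, and every comparison before Cre rests on them.

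Rtel1 itself was the first check. Rtel1 (chromosome 2, 181319711 to 181356616, mm10) was at 283, 253 and 257 CPM in RTEL1CA +Cre and at 29.9, 31.9 and 26.8 CPM in Rtel1 F/F +Cre. It was at 338, 328 and 331 CPM in RTEL1CA +GFP and at 66.2, 59.1 and 60.2 CPM in Rtel1 F/F +GFP. The 4 groups did not overlap, and each Cre group lay below its own GFP group. The +Cre cultures of the parental line had 47.7% of the Rtel1 level of its +GFP cultures, and those of the mutant line had 79.6%. The mutant line after Cre held 4.28 times the Rtel1 level of the undeleted parental line. Rtel1 was 8.96-fold higher in RTEL1CA +Cre than in Rtel1 F/F +Cre (log2 fold change 3.16 ± 0.0839 SE, adjusted p = 3.1e-14). On the length-scaled measure, mean TPM values were 108 and 11.9. Counts per gene do not separate vector from endogenous transcripts, nor the deleted part of the gene from the rest. Of the genes on either side, Arfrp1, a small GTPase, did not pass the test (log2 fold change 0.15, 95% interval -0.05 to 0.34), and Stmn3 had at most 2 counts in any of the 6 libraries and was not tested.

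**Figure D1:**
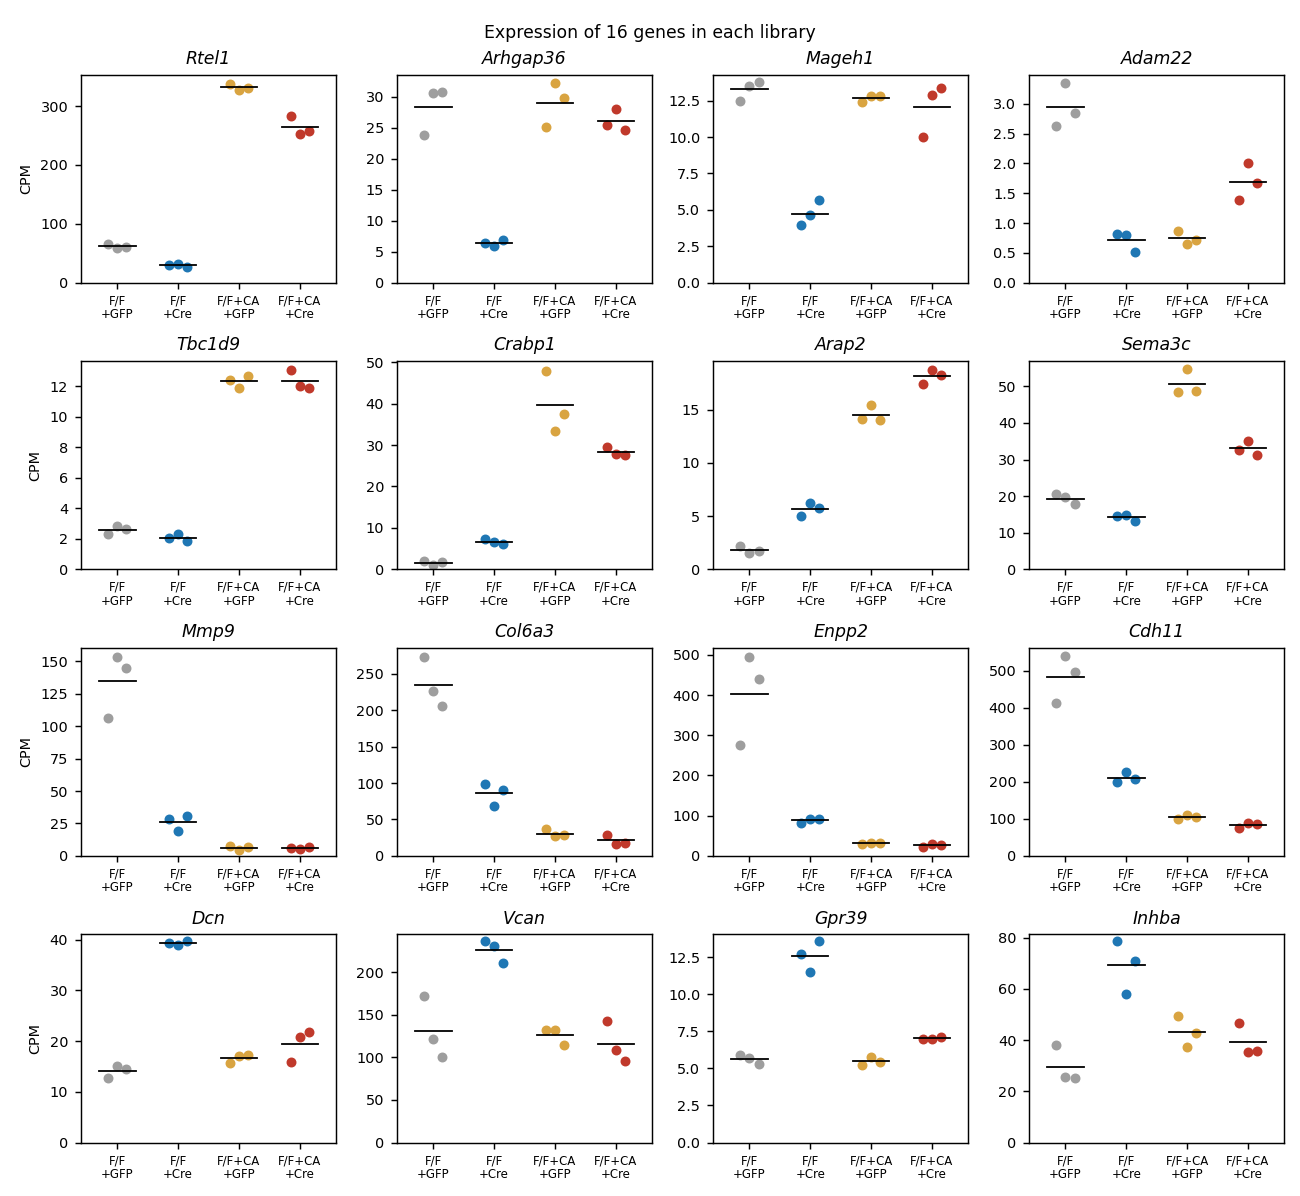
Expression of 16 genes in CPM (linear axes from 0) in the 3 libraries of each of 4 groups, with F/F for the parental line and F/F+CA for the line with mutant RTEL1. Points are libraries and lines are group means. Rtel1 was at 253 to 283 CPM in the mutant line after Cre and at 26.8 to 31.9 CPM in the parental line, and Arhgap36, Mageh1, Dcn, Vcan and Gpr39 stood apart mainly in the parental line after Cre.

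Across the 13719 genes tested, 590 passed an adjusted p of 0.01 (4.30%). Of these, 348 were higher in RTEL1CA +Cre (2.54% of genes tested) and 242 were lower (1.76%), and 265 differed at least by a factor of 2 (absolute log2 fold change of 1 or more). The median absolute log2 fold change over all genes tested was 0.11. In all 590 genes the 3 libraries of each group did not overlap, as was so for 2333 of all genes tested. Of the called genes, 129 had a mean under 1 CPM over the 6 libraries and 305 reached 5 CPM, 144 of them higher and 161 lower. With only the 6 libraries in the fit 117 genes were called, all of them among the 590, and without Rtel1 F/F +Cre replicate 3 the count was 388. The number called higher fell to 220 without that library, to 225 without Rtel1 F/F +Cre replicate 1 and to 230 without RTEL1CA +Cre replicate 2, and the number called lower fell to 152 without RTEL1CA +Cre replicate 3.

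**Figure D2:**
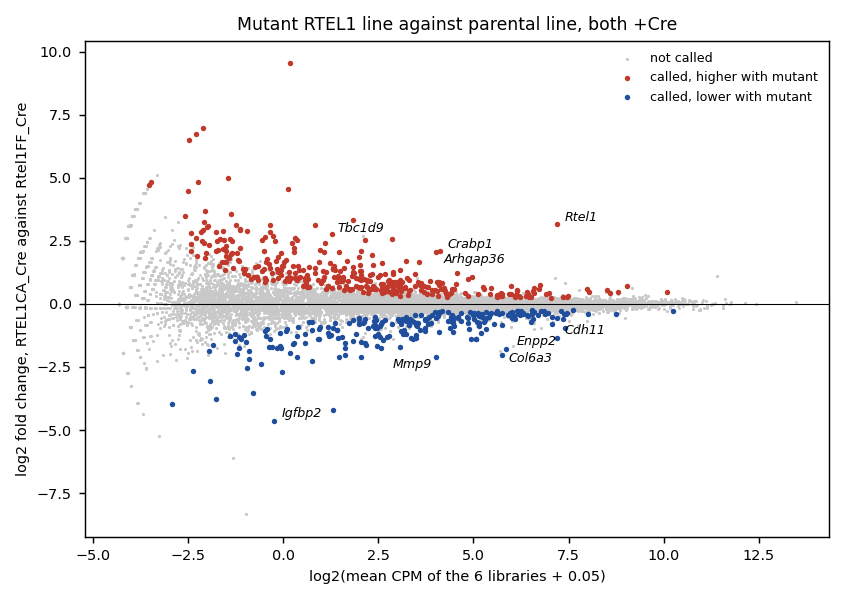
Each point is 1 of the 13719 genes tested, with its mean level over the 6 libraries on the horizontal axis (log2 of mean CPM + 0.05) and the log2 fold change of RTEL1CA +Cre over Rtel1 F/F +Cre on the vertical axis. Red marks the 348 genes called higher with the mutant and blue the 242 called lower.

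Where the mean over the 6 libraries reached 5 CPM, the 10 called genes with the largest rises were Rtel1, Tbc1d9, Crabp1, Arhgap36, Mbnl3, Arap2, Arhgap24, Klf8, Mageh1 and Nt5e. Tbc1d9, which encodes a Rab GTPase-activating protein, was at 13.1, 12 and 11.9 CPM in RTEL1CA +Cre and at 2.05, 2.33 and 1.86 CPM in Rtel1 F/F +Cre, 5.91-fold higher (adjusted p = 6.2e-12). Crabp1, a carrier of retinoic acid in the cytoplasm, was at 29.5, 27.9 and 27.5 CPM against 7.39, 6.48 and 6.11 CPM, 4.24-fold higher (adjusted p = 1.5e-08). These pairs of groups lay far apart, with little spread within either. Arap2 and Arhgap24, which stimulate GTP hydrolysis by small GTPases, were 3.21-fold and 3.09-fold higher. The transcription factor Klf8 was 2.92-fold higher, and Nt5e, the surface enzyme that makes adenosine from AMP, was 2.41-fold higher. Mbnl3, an RNA-binding regulator of splicing, was at 15.3, 14.6 and 12.6 CPM against 4.40, 4.67 and 3.93 CPM. At higher levels of expression, the secreted guidance cue Sema3c (2.32-fold) and the matrix protease Adamts1 (2.10-fold) were called as well.

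By the same rule the largest falls included those of Mmp9, Col6a3, Enpp2, Piezo2, C3, Smoc2, 3300005D01Rik, Pkp1 and Ccl5. Mmp9, a gelatinase that degrades basement membrane, was at 6.10, 5.52 and 6.48 CPM in RTEL1CA +Cre and at 28.2, 19.5 and 30.5 CPM in Rtel1 F/F +Cre, 4.31-fold lower with the mutant (adjusted p = 5.8e-06). Col6a3, a chain of the collagen VI microfibril, was at 28.6, 16.6 and 18.3 CPM against 99.0, 68.3 and 90.0 CPM, 4.05-fold lower (adjusted p = 4.3e-06). Enpp2 encodes autotaxin, the secreted enzyme that makes lysophosphatidic acid, and was at 22.7, 28.5 and 26.4 CPM against 82.5, 92.0 and 92.2 CPM (3.44-fold lower). The groups did not overlap in these 3 genes, which the rule required and which held for all 590 called genes. Mmp9 and Col6a3 varied more within the parental group. The stretch-activated channel Piezo2 was 3.32-fold lower, the complement component C3 3.29-fold lower and the matrix protein Smoc2 3.19-fold lower. Pkp1, a desmosomal plaque protein, was at 18.6 against 49.1 CPM. Among more abundant genes, the mesenchymal cadherin Cdh11 fell from 200, 226 and 207 CPM in the parental line to 75.1, 88.1 and 85.3 CPM in the mutant line (adjusted p = 1.0e-08), and the cationic amino acid transporter Slc7a2 was 2.21-fold lower.

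The gap before Cre was much wider. Between RTEL1CA +GFP and Rtel1 F/F +GFP, 6138 of the same 13719 genes were called (44.7%), 3105 higher in the mutant line (22.6%) and 3033 lower (22.1%), with a median absolute log2 fold change of 0.40. These 2 comparisons share no library. Of the 590 genes called after Cre, 349 were also called before Cre in the same direction, which is 59.2% of the list after Cre and 5.69% of the list before Cre. In 262 of these 349 the gap was smaller after Cre. A further 59 were called in opposite directions, and 182 were not called before Cre. The change of the gap itself was tested as the difference of the 2 log2 fold changes, and 3450 genes passed (25.1%), 1688 with a gap that was more positive after Cre (12.3%) and 1762 with one that was more negative (12.8%). This test shares its +Cre libraries with the comparison after Cre, so its calls are not independent of it.

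**Figure D3:**
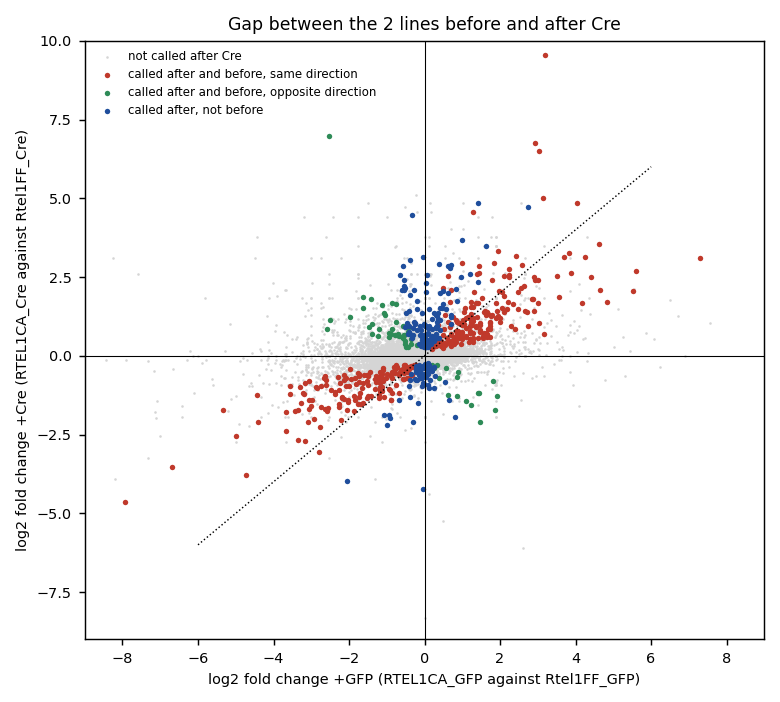
Log2 fold change of the mutant line over the parental line after GFP (horizontal) and after Cre (vertical) for the 13719 genes tested, with a dotted line where both are equal. Of the 590 genes called after Cre, 349 (red) were called in the same direction before, 59 (green) in the opposite direction and 182 (blue) were not called before.

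All but Arhgap36 and Mageh1 of the 10 largest rises were already higher in the mutant line before Cre, as were 8 of the 10 largest falls lower. Tbc1d9 was at 12.3 CPM in RTEL1CA +GFP and 2.61 CPM in Rtel1 F/F +GFP, a gap that did not pass the test of change (log2 difference 0.32, adjusted p = 0.0593). For Mmp9 the means before Cre were 6.34 and 135 CPM, for Col6a3 30.8 and 235 CPM, and for Enpp2 31.7 and 403 CPM. In these 3 genes the mutant line was low under both viruses. The narrowing of the gap passed the test for Mmp9 (adjusted p = 2.2e-05) and Enpp2 (7.8e-06) but not for Col6a3 (0.0149). The gap of C3 narrowed from a log2 gap of -5.34 before Cre to -1.72 after it (difference 3.63, adjusted p = 6.3e-06).

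In 53 genes the gap was called after Cre and not before, with a called change in the same direction, non-overlapping groups and a mean that reached 5 CPM. Of these 53, 24 were higher and 29 lower in the mutant line. Arhgap36, an inhibitor of protein kinase A that activates Gli transcription factors, was at 25.5, 28.1 and 24.7 CPM in RTEL1CA +Cre and at 6.36, 5.86 and 6.88 CPM in Rtel1 F/F +Cre. Its means before Cre were 29.1 CPM in the mutant line and 28.4 CPM in the parental line, so the 3 groups other than Rtel1 F/F +Cre lay close together (change of the gap 2.00, adjusted p = 5.7e-07). Mageh1, of the MAGE family, showed the same arrangement, with means of 12.1 and 4.73 CPM after Cre and 12.7 and 13.3 CPM before it. Pcdh9, a protocadherin, and Hid1, a Golgi protein of the secretory route, were 2.24-fold and 1.93-fold higher after Cre. Adamts5, the aggrecan-cleaving protease, was 1.85-fold higher, and Hpse, the heparan sulphate endoglycosidase, was 1.87-fold higher. A gap that was not called before Cre was not always absent. The log2 fold change before Cre was 0.35 for Pcdh9 (adjusted p = 0.0249) and 0.3 for Adamts5 (0.0275). It was -0.41 for Hid1 (0.0148) and -0.53 for Hpse (0.0124), opposite in direction to that after Cre. The call for Hpse was lost without RTEL1CA +Cre replicate 2 (adjusted p = 0.0184) and without Rtel1 F/F +Cre replicate 1 (adjusted p = 0.016).

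Among the 29 that were lower, Dcn, the small proteoglycan decorin, was at 15.9, 20.9 and 21.8 CPM in RTEL1CA +Cre and at 39.3, 38.9 and 39.7 CPM in Rtel1 F/F +Cre, with means of 16.7 and 14.2 CPM before Cre. Vcan, the large proteoglycan versican, was at 142, 109 and 95.5 CPM against 237, 230 and 211 CPM, with means of 126 and 131 CPM before Cre. In both genes the parental line after Cre was the group that stood above the rest. The chemokine Ccl9 was 1.84-fold lower and the zinc-sensing receptor Gpr39 1.80-fold lower after Cre, with log2 fold changes before Cre of -0.01 and -0.04. Inhba, the activin A subunit, was 1.76-fold lower (adjusted p = 0.00894). Its log2 fold change before Cre was 0.54 (adjusted p = 0.0195), in the opposite direction. The call for Inhba was lost without RTEL1CA +Cre replicate 2 (0.044) or replicate 3 (0.0408) and without Rtel1 F/F +Cre replicate 1 (0.0506) or replicate 3 (0.0269), given as adjusted p. With only the 6 libraries in the fit, Mageh1, Hid1, Hpse, Adamts5, Vcan, Ccl9 and Inhba were not called, while Arhgap36, Pcdh9, Dcn and Gpr39 were.

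The listed genes of DNA replication, mitosis and genome maintenance did not differ at the threshold used. Rtel1 itself, called with a log2 fold change of 3.16, was in none of these 5 lists. None of 55 DNA replication genes, 34 mitosis genes, 43 DNA damage response genes, 29 G4 helicases and R-loop factors or 23 of 24 telomere maintenance genes that were tested was called by edgeR, and DESeq2 and the other alternatives called none of them. At an unadjusted p under 0.05 the counts were 0, 1, 2, 2 and 1 in that order. The estimates for every member of these 5 lists lay between log2 fold changes of -0.30 and 0.26. List medians lay between -0.01 and 0.02, beside 0 for all genes tested. Some intervals were wide, as for Pold1 (-0.30, 95% interval -1.3 to 0.7) and Rnaseh2c (-0.14, -1.5 to 1.23), so larger differences in such genes were not resolved. Terf1 and Terf2, which bind double-stranded telomere repeats, had log2 fold changes of -0.03 (95% interval -0.21 to 0.15) and 0.08 (-0.10 to 0.27). Pcna, the sliding clamp, was at 391 ± 47.5 CPM (SD, n = 3) in RTEL1CA +Cre and 399 ± 21.6 CPM in Rtel1 F/F +Cre. The helicases Blm, Brip1, Pif1 and Wrn had log2 fold changes of 0.04, -0.03, 0.05 and 0.07. Slx4, the nuclease scaffold, was at 0.01 (-0.20 to 0.22) and Rnaseh1, which removes RNA from R-loops, at 0.00 (-0.26 to 0.26). Before Cre, 14 of the 55 replication genes were called higher in the mutant line and 6 lower, beside 22.6% and 22.1% of all genes. Of the 34 mitosis genes 16 were called higher and 0 lower.

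Of 29 p53 target genes, 1 was called higher and 1 lower, against a background of 4.30%. Perp, a desmosomal p53 target, was at 10.0, 11.8 and 11.2 CPM in RTEL1CA +Cre and at 5.45, 5.61 and 5.90 CPM in Rtel1 F/F +Cre (adjusted p = 1.5e-04). Cdkn1a, the p21 inhibitor of cyclin-dependent kinases, was at 102, 98.9 and 93.7 CPM against 123, 113 and 121 CPM, 1.21-fold lower with the mutant (adjusted p = 0.00278). The groups did not overlap in either gene, as in all 590 called genes. The call for Cdkn1a was lost without RTEL1CA +Cre replicate 3 (adjusted p = 0.0449) and without Rtel1 F/F +Cre replicate 1 (0.0203) or replicate 3 (0.0285). Cdkn1a was at 64.1 CPM in RTEL1CA +GFP and at 51.1 CPM in Rtel1 F/F +GFP, and its gap turned direction after Cre (change -0.60, adjusted p = 1.4e-05). Across the lists, the genes lost in the fit with only the 6 libraries included Cdkn1a (adjusted p = 0.135), Gbp3, Col14a1, Col11a1, Postn, Mme, Bmpr1b, Nog, Lef1, Wnt5a, Dkk3, Itga8, Hoxc10, Foxc2, Lhx9, Sqle, Pcdh7, Slc7a11 and Vldlr. Mdm2, the ubiquitin ligase for p53, was at 176 and 175 CPM after Cre.

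**Figure D4:**
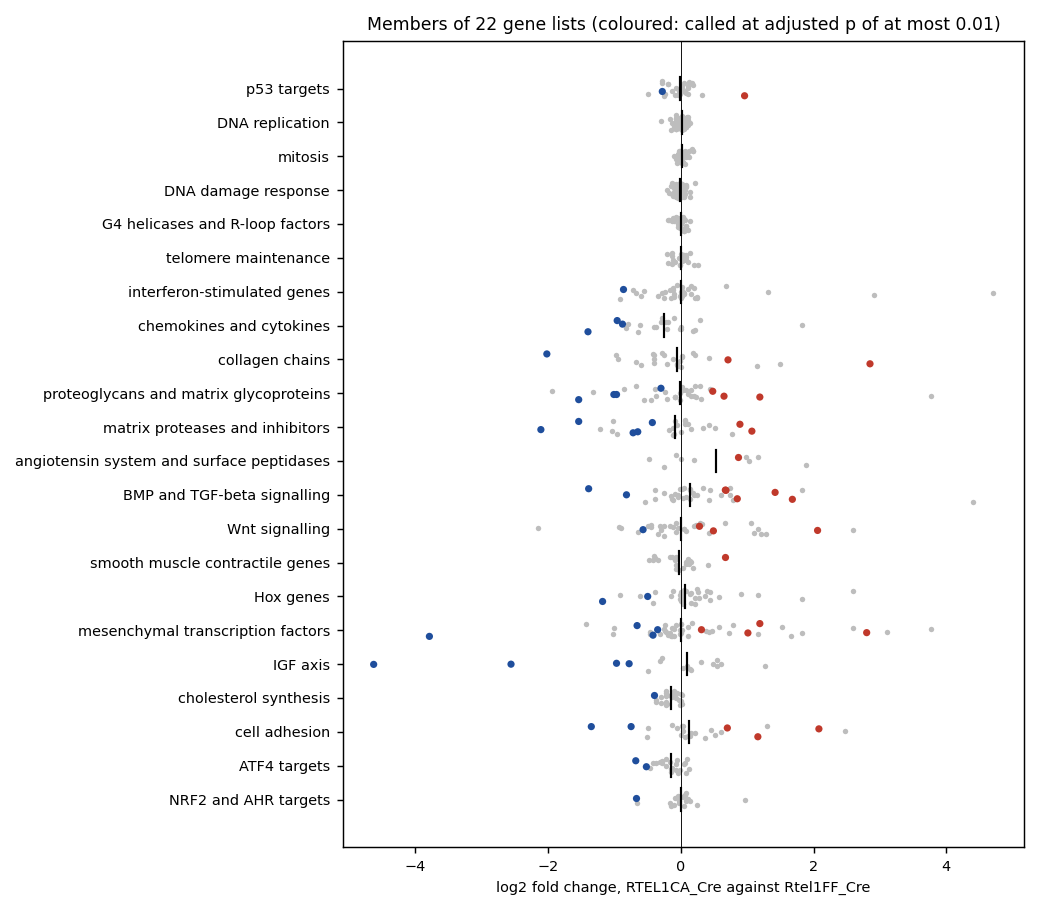
Log2 fold change of RTEL1CA +Cre over Rtel1 F/F +Cre for each tested member of 22 gene lists. Points are genes, red where called higher, blue where called lower and grey where not called, and vertical bars are list medians. The 5 lists of DNA replication, mitosis, DNA damage response, G4 and R-loop factors and telomere maintenance held no called gene. Rtel1 was in none of these 5 lists. Matrix and signalling lists held calls in both directions.

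Matrix lists held calls in both directions. Of 35 proteoglycans and matrix glycoproteins, 3 were called higher and 4 lower (list median -0.02), beside 2.54% and 1.76% of all genes tested. Efemp1, an elastic fibre glycoprotein, was 2.28-fold higher, and Postn, Dcn and Vcan were lower, with Postn at 1.55 against 4.49 CPM. Of 27 matrix proteases and inhibitors, Adamts1 and Adamts5 were called higher and 5 were lower (list median -0.09), among them Mmp9 and Adamts9 (2.23 against 6.51 CPM). Of 27 collagen chains, Col11a1 was 1.63-fold higher (78.9 against 48.4 CPM), Col6a3 was lower, and Col14a1 was called higher from 25, 20 and 14 counts against 3, 2 and 2. The median of the collagen list was -0.06 after Cre, while before Cre 18 of the 27 were called lower in the mutant line with a median of -1.23, beside 22.1% of all genes.

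Among 24 adhesion genes, Cdh3, Pcdh9 and Alcam were higher and Cdh11 and Pcdh7 lower, beside 4.30% of all genes called in either direction. Cdh3, P-cadherin, was at 7.66, 5.87 and 6.48 CPM against 1.72, 1.59 and 1.42 CPM, 4.22-fold higher with the mutant (adjusted p = 2.6e-09), and its means before Cre were 9.47 and 5.86 CPM. Pcdh7 was at 26.2 against 44.2 CPM. Of 10 genes of the angiotensin system and surface peptidases, Mme, which encodes neprilysin, was called (1.82-fold higher). Mme was at 18.1 CPM in RTEL1CA +GFP and 109 CPM in Rtel1 F/F +GFP, so the order of the lines turned with Cre (change 3.45, adjusted p = 1.2e-08).

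Of 37 BMP and TGF-beta signalling genes, 5 were higher and 2 lower (list median 0.13), beside 2.54% and 1.76% of all genes tested. The higher ones held a receptor, Bmpr1b, at 1.18, 1.08 and 0.868 CPM against 0.350, 0.447 and 0.164 CPM, and 4 secreted regulators that bind BMPs or activins, Nog, Bmper, Grem1 and Fst. Bmper was at 14.9 against 8.31 CPM. Nog was at 2.67, 2.75 and 2.18 CPM against 1.24, 0.645 and 0.955 CPM, and its call was lost without RTEL1CA +Cre replicate 2 (adjusted p = 0.0117) and without Rtel1 F/F +Cre replicate 2 (0.0137) or replicate 3 (0.0122). Inhba was among the lower ones. Bmp4 itself did not pass the test (2.52 against 1.85 CPM, log2 fold change 0.44, 95% interval -0.01 to 0.90). Of 36 Wnt signalling genes, 3 were higher and 1 lower, beside the same background. Dkk2, a secreted Wnt modulator, was at 3.16, 3.48 and 3.26 CPM against 0.606, 0.769 and 1.01 CPM, and the ligand Wnt5a was 1.40-fold higher. Lef1, a transcription factor of the pathway, was lower, and its call was lost without RTEL1CA +Cre replicate 3 (adjusted p = 0.0104) and without Rtel1 F/F +Cre replicate 1 (0.0119).

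The IGF axis held 4 calls among 17 genes, all lower with the mutant (1.76% over all genes tested), while the list median was 0.09. The growth factor Igf1 was at 3.25, 3.83 and 4.06 CPM against 6.13, 8.81 and 6.91 CPM, and the binding protein Igfbp7 at 34.1 against 58.7 CPM. Igfbp2 had 4, 2 and 2 counts in RTEL1CA +Cre and 81, 28 and 75 in Rtel1 F/F +Cre (adjusted p = 2.0e-04), and Igf2 had 9, 6 and 3 counts against 32, 27 and 37 (adjusted p = 3.8e-04). Before Cre the parental line held 25.9 CPM of Igfbp2, 8.53 CPM of Igf2 and 79.4 CPM of Igf1, and the mutant line 0.103, 0.264 and 6.71 CPM. The mutant line was thus below the parental line under both viruses in Igfbp2, Igf2 and Igf1. With only the 6 libraries in the fit, Igf1, Igf2 and Igfbp7 were not called (adjusted p = 0.0307, 0.0138 and 0.0114).

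Of 48 mesenchymal transcription factors, 4 were higher and 4 lower, beside 2.54% and 1.76% of all genes tested. Foxc2, a forkhead factor of paraxial mesoderm, was at 6.98 against 3.06 CPM, and Lhx9 at 1.48 against 0.745 CPM. Of 36 Hox genes, Hoxc13 (2.26 against 5.14 CPM) and Hoxc10 (18.2 against 25.8 CPM) were called lower, beside the same 1.76%. The call for Hoxc10 was lost without RTEL1CA +Cre replicate 2 (adjusted p = 0.0178) or replicate 3 (0.0209) and without Rtel1 F/F +Cre replicate 1 (0.0121) or replicate 3 (0.0199). Both Hoxc genes lie on chromosome 15.

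Of 38 interferon-stimulated genes 1 was called lower after Cre (1.76% over all genes tested), Gbp3, a guanylate-binding GTPase, at 3.63, 4.61 and 4.15 CPM against 6.76, 8.39 and 7.45 CPM, a call that was lost without Rtel1 F/F +Cre replicate 2 (adjusted p = 0.0107). Isg15, the ubiquitin-like modifier, had a log2 fold change of -0.60 (adjusted p = 0.0272) and was not called. Before Cre 29 of the 38 were called lower in the mutant line (median -1.38, with 22.1% of all genes called lower), and in 24 of the 38 the gap was called more positive after Cre (12.3% of all genes). Of 22 chemokines and cytokines 3 were lower (1.76% over all genes) and none higher (2.54%), with a list median of -0.25. Ccl5, a chemokine for T cells and monocytes, was at 16.2, 17.5 and 16.6 CPM against 43.2, 42.5 and 47.0 CPM (2.64-fold lower), and Ccl9 is described above. Cxcl16 was at 3.58 against 6.94 CPM (adjusted p = 0.00307). The adjusted p of Cxcl16 was 0.0105 to 0.0193 when any of the 3 RTEL1CA +Cre libraries or Rtel1 F/F +Cre replicate 1 or 2 was left out. Among the 7 macrophage markers, Adgre1 and Tyrobp were at 0 in both groups. Csf1r, the receptor for macrophage colony-stimulating factor, was at 0.774 to 0.921 CPM in RTEL1CA +Cre and at 1.36 to 1.51 CPM in Rtel1 F/F +Cre, without overlap, and did not pass the test (adjusted p = 0.0951). The part of such cells in these results was not tested.

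The cholesterol, stress response and smooth muscle lists held 1 or 2 calls each, beside 4.30% of all genes tested. Among 25 cholesterol synthesis genes, Sqle, squalene epoxidase, was 1.32-fold lower (221 against 291 CPM), and the list ran from -0.40 to 0.02 with a median of -0.15. The call for Sqle was lost without RTEL1CA +Cre replicate 3 (adjusted p = 0.0173) and without Rtel1 F/F +Cre replicate 2 (0.0144). Among 25 ATF4 targets, Slc7a11, the cystine transporter, and Vldlr, a lipoprotein receptor, were lower at 16.2 against 26.0 CPM and 34.8 against 49.9 CPM, and Slc7a11 was also the 1 call among 20 NRF2 and AHR targets. Its call was lost without Rtel1 F/F +Cre replicate 2 (adjusted p = 0.0106). Of 23 smooth muscle contractile genes, the integrin Itga8 was called, at 4.74 against 2.99 CPM, and was lost without RTEL1CA +Cre replicate 2 (adjusted p = 0.0256) and without Rtel1 F/F +Cre replicate 2 (0.0115) or replicate 3 (0.0296).

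Most of the genes named for a link to the study were not called at the RNA level. In the study, Bcl6 and Actb were loci at which R-loops were measured by qPCR. Dapk1, the death-associated kinase, had a log2 fold change of -0.05 (95% interval -0.29 to 0.19) and Bcl6, a transcriptional repressor, 0.02 (-0.13 to 0.18). Adam22, a catalytically inactive surface metalloprotease, was at 1.39, 2.01 and 1.67 CPM in RTEL1CA +Cre and at 0.816, 0.794 and 0.519 CPM in Rtel1 F/F +Cre, 2.35-fold higher (adjusted p = 0.00108). Before Cre its means were 0.740 CPM in the mutant line and 2.94 CPM in the parental line, so the order turned with Cre (change 3.21, adjusted p = 6.5e-07). With only the 6 libraries in the fit Adam22 was not called (adjusted p = 0.0533). Poldip3, an mRNA export factor, had a log2 fold change of -0.19 (adjusted p = 0.0914) and Actb of -0.09 (adjusted p = 0.912).

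By position, most genes of chromosome 15 lay lower in the mutant line. Of 552 genes tested there, 40 were called lower (7.25%) and 11 higher (1.99%). Over the 424 of them that reached a mean of 5 CPM over all libraries, the median log2 fold change was -0.20 and 90.3% lay below 0. For the other 19 chromosomes the medians lay between -0.07 and 0.06 and the shares below 0 between 27.5% and 73.8%. After Cre the shift ran along the whole chromosome, with medians of -0.23 to -0.15 in its 11 windows of 10 Mb. Each window held 8 to 104 genes. As the median log2 distance of chromosome 15 genes from their mean over the 12 libraries of both lines, the RTEL1CA +Cre libraries were at -0.04, -0.15 and -0.11 and the Rtel1 F/F +Cre libraries at 0.15, 0.00 and 0.16. Before Cre the mutant line was at -0.01, -0.13 and -0.05 and the parental line at 0.11, 0.09 and 0.11. The lines did not overlap under either virus, which was also so for chromosomes 2 and 16. Before Cre the median log2 fold change of chromosome 15 was -0.15, with 60.4% of genes below 0. Its window medians before Cre ran from -0.49 to 0.30, and the median of chromosome 18 was 0.22. The shift of chromosome 15 was noticed after the values were seen and was not tested. Enpp2, Hoxc13, Hoxc10, Sqle, Poldip3 and Col14a1 lie on this chromosome, and the log2 fold changes of Poldip3 (-0.19), Sqle (-0.40) and Hoxc10 (-0.50) stand beside the chromosome median of -0.20. Its part in these results was not tested. Of the 590 genes called, 539 lay outside chromosome 15, 337 higher and 202 lower, counted from the same fit without a new one. Chromosome X held 28 genes called higher among 469 tested (5.97%, beside 2.54% over all genes), including Arhgap36, Mbnl3, Klf8 and Mageh1, but its median over 340 genes was -0.02.

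**Figure D5:**
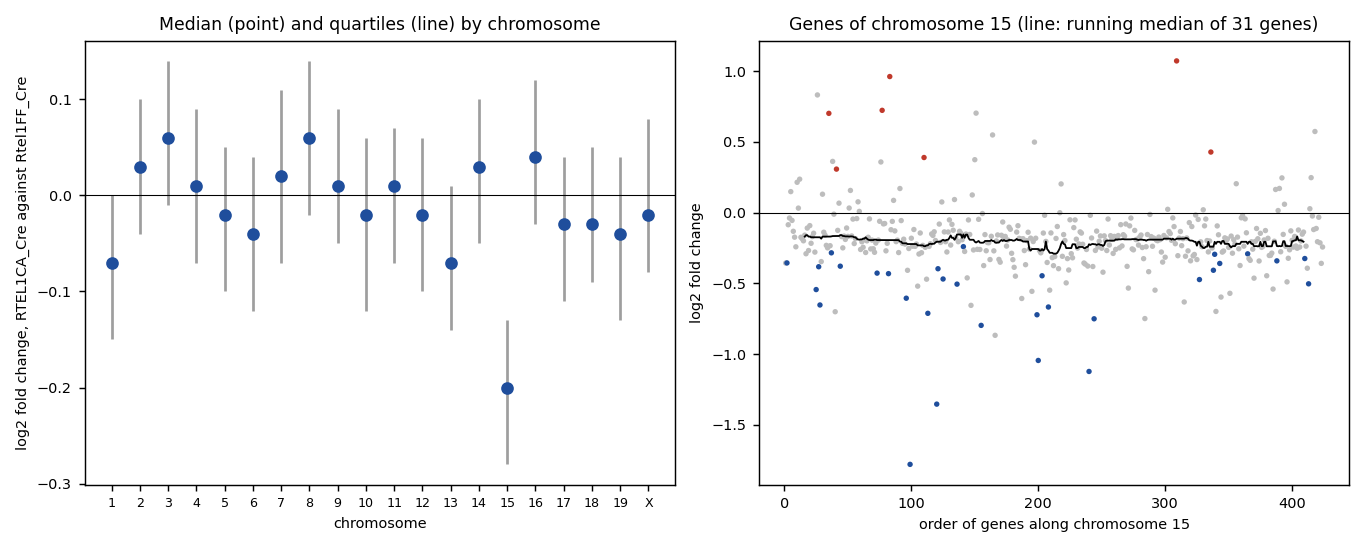
Log2 fold change of RTEL1CA +Cre over Rtel1 F/F +Cre by chromosome for genes that reached a mean of 5 CPM over all libraries (left, median and quartiles) and for the 424 genes of chromosome 15 in their order along it (right, blue called lower, red called higher, line the running median of 31 genes). The median of chromosome 15 was -0.20 and those of the other 19 chromosomes lay between -0.07 and 0.06.

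Since RTEL1 unwinds G-quadruplexes, promoters were searched for 4 runs of GGG separated by gaps of 1 to 7 bases of any kind, on both strands, in the 300 bases from 250 before to 50 after each RefSeq start site (GRCm38.p6). A promoter was in the table for 259 of the 348 genes called higher, 167 of the 242 called lower and 10394 of the 13719 tested. The motif was in 39.0% of the higher genes, 47.3% of the lower genes and 31.8% of all tested, and in 18.5% of all promoters of the table. Median promoter GC content was 60.3%, 60.0% and 61.0% in the 3 gene sets, and genes called had more start sites listed (1.42 and 1.54 a gene, against 1.28), which gives more chances of a match. Since under 80% of each gene set had a promoter in the table, the check over gene sets is void, and the shares are given as a description only. Among named genes, 29 had the largest differences or the largest gaps called after Cre and not called before. Of these, 6 had a match, 12 had none and 11 had no entry. The promoters of Rtel1, of the 2 other largest rises with a match and of the 1 fall with a match are shown 5′ to 3′ on the strand of the gene, with the motif in capitals. They are at chr2:181319474-181319773 (+), chr9:54764498-54764797 (+), chrX:51205941-51206240 (-) and chr13:89742463-89742762 (-).
Rtel1: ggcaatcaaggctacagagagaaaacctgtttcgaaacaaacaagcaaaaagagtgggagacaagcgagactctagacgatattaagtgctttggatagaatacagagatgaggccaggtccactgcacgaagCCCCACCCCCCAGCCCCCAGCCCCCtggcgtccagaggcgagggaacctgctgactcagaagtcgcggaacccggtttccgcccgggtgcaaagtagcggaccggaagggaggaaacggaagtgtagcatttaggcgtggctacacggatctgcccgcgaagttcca
Crabp1: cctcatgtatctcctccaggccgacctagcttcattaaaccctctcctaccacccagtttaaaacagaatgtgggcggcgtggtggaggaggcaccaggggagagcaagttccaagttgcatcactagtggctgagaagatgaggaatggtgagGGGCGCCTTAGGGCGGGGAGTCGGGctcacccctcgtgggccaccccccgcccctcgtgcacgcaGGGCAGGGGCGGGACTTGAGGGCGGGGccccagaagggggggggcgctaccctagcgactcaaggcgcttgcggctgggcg
Mbnl3: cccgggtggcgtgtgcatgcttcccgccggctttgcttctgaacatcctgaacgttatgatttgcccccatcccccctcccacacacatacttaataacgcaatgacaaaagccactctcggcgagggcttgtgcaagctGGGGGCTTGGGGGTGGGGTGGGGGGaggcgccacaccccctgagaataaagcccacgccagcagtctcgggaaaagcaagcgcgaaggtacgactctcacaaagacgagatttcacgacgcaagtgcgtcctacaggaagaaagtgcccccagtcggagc
Vcan: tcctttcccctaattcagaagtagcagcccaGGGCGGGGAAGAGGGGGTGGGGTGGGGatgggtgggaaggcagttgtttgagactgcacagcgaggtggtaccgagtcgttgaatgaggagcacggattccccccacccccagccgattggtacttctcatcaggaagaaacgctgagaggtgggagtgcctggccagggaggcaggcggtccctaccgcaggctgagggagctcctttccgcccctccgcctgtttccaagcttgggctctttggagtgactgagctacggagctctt
The motif lies on the strand opposite to the gene in Rtel1 and on the strand of the gene in the other 3. In Rtel1 it ends 93 bases before the start site, in Mbnl3 86 bases and in Vcan 193 bases before it, and the Crabp1 promoter holds 2 copies. Vector-borne Rtel1 is not driven by this promoter, so nothing about its level follows from the match.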

How the data were processed

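Poly(A) RNA libraries (KAPA mRNA Hyper Prep, strand-specific single-end reads) were trimmed, aligned and counted per gene by the authors with cutadapt 1.9.1, STAR 2.5.2a and RSEM 1.3.0 against mm10, per the labels. The deposited table held RSEM expected counts, stored as whole numbers, and TPM values made by the authors for 24454 genes. TPM was used only for the length-scaled level of Rtel1. Sources differ on read length and serum.

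Counts of all 21 libraries were fitted with edgeR 4.0.16 in R 4.3.3 (TMM scaling, filterByExpr, robust quasi-likelihood fit, 1 coefficient per group, 14 residual degrees of freedom). Two-sided p-values were Benjamini-Hochberg adjusted over 13719 genes, with the call set at 0.01 or below. CPM values use TMM-scaled library sizes. Intervals are 95% intervals of the fitted log2 fold change. Groups followed the labels. The comparison, gene lists and tests were chosen with earlier results of these data known. The fit was tested on simulated data.

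Named genes were the 10 largest rises and falls among called genes whose groups did not overlap and whose mean reached 5 CPM. With the same limits came 6 each way called after Cre but not before with a called change of the gap. The same limits held for 6 each way called alike in both. Another 5 each way had the highest level among called genes with an absolute log2 fold change of at least 1. Up to 4 called genes a list, Rtel1 with its neighbours, and genes linked to the study completed the set. Gene positions came from RefSeq (GRCm38.p6), in which 13135 genes matched by symbol, 546 by synonym and 38 not at all. DESeq2 1.42.0 was an alternative, with other filters, scalings, a replicate block and left-out libraries. Some named genes are not reported here.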

Additional observations from a re-analysis of the deposited data

Results flagged for a closer look

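The gap between the lines differed after Cre from before Cre in 3450 genes by the test of the difference itself, which shares its +Cre libraries with the main comparison. Among genes described above, the log2 gap was more positive after Cre by 0.74 for Rtel1, 3.21 for Adam22, 2.00 for Arhgap36, 1.03 for Mbnl3, 1.42 for Mageh1, 0.81 for Pcdh9, 1.36 for Hid1, 1.43 for Hpse and 0.59 for Adamts5. It was also more positive, as a fall that was smaller after Cre, by 2.30 for Mmp9, 1.89 for Enpp2, 1.60 for Piezo2, 3.63 for C3, 0.87 for Smoc2 and 1.59 for Ccl5. The gap was more negative after Cre with differences of -2.57 for Crabp1, -1.31 for Arap2, -0.73 for Arhgap24 and -0.69 for Nt5e, all of which stayed higher in the mutant line. It was also more negative for 3300005D01Rik (-2.52), Dcn (-1.25), Vcan (-0.91), Ccl9 (-0.87), Gpr39 (-0.81) and Inhba (-1.36). Groups of 3 libraries are too small for the test of single outlying libraries, so none was made.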

How the results depend on the processing

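The count of 590 genes called after Cre was 117 with only the 6 libraries in the fit (60 higher, 57 lower), 971 at an adjusted p of 0.05 (536 higher, 435 lower) and 265 with an absolute log2 fold change of 1 or more (174 higher, 91 lower). Leaving out 1 library gave 388 to 541 genes, 220 to 299 higher and 152 to 242 lower. DESeq2 called 714, of which 562 were among the 590, DESeq2 size factors gave 560, no filter on low counts 539 and a minimum of 10 counts in every library 454. Of the 590 calls, 539 lay outside chromosome 15. That count was chosen after seeing the data and came from the same fit, so it does not test how the calls depend on chromosome 15. Before Cre, the 6138 calls became 1849 with an absolute log2 fold change of 1 or more. The 3450 calls for the change of the gap became 2195 with only the groups compared, 5229 at an adjusted p of 0.05 and 1224 with an absolute log2 fold change of 1 or more. Of 67 called genes that the naming rule picked, 31 lost their call with only the 6 libraries and 13 with some 1 library left out, and no alternative reversed a direction. The cause was not tested.

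Replicate numbers were not treated as pairs. Deviations from the group mean correlated at 0.74, 0.80 and 0.05 between libraries of the same number in the +Cre groups. Between +Cre and +GFP they correlated at 0.86, 0.84 and 0.42 in the mutant line and at -0.02, 0.06 and 0.13 in the parental line, so the numbers paired the libraries of the mutant line but not those of every group in the change of the gap. With a replicate block 770 genes were called after Cre (411 higher, 359 lower), 7498 before Cre and 4667 for the change of the gap. With the block and only the groups compared the counts were 488 (216 higher, 272 lower, so 44.3% higher against 59.0% of the 590), 3367 and 3522. Of the 590 genes, 129 had a mean under 1 CPM, where few counts limit precision.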

Other observations

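Genes of lower abundance also differed widely. Those named here were chosen after their values were seen, as called genes with an absolute log2 fold change of 3 or more and at least 2 CPM in the higher group. Lama2, a chain of the basement membrane laminin of muscle and mesenchyme, was at 7.55, 6.45 and 5.28 CPM in RTEL1CA +Cre and at 0.746, 0.62 and 0.546 CPM in Rtel1 F/F +Cre. Bnc1, a zinc finger factor, was 8.77-fold higher. Wasf3, an actin regulator, had 123, 66 and 85 counts against 2, 6 and 2. Homer2, a scaffold protein, was at 2.16, 2.55 and 1.83 CPM with the mutant and had 0 counts in all 3 Rtel1 F/F +Cre libraries. It was at least 28.9-fold higher when set against a floor of 3 counts per library. Lama2, Bnc1, Wasf3 and Homer2 were already called higher in the mutant line before Cre, with log2 fold changes of 1.94, 3.68, 1.28 and 3.2. Tfpi, the inhibitor of tissue factor, was the 1 such gene that was lower, at 0.294, 0.27 and 0.164 CPM against 4.08, 4.89 and 4.94 CPM, while both lines lay between 0.114 and 0.366 CPM before Cre.

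A list of 53 imprinted genes was added after the values were seen. Of 43 tested, 6 were called higher in RTEL1CA +Cre and 1 lower (Igf2), beside 2.54% and 1.76% of all genes tested, with a list median of 0.08. Snrpn was 6.76-fold higher and Mest 2.01-fold higher, with log2 fold changes before Cre of 2.24 and -1.38. Peg3 had 16, 11 and 15 counts against 0, 0 and 0, at least 4.14-fold higher against the same floor. Before Cre 18 of the 43 were called, beside 44.7% of all genes.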
